A study of Arabidopsis thaliana with 8 samples.

Results

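A set of array probes of Arabidopsis thaliana carry no gene name in the scanner files, only a chromosome with a start and an end. There were 8812 such position-named probes among 37478 non-control probes. Those described here are the 1904, or 21.6%, that the extraction software marked as well above background on at least 4 of the 8 arrays. They were chosen by that detection mark, so the mark is given as a description and is not tested. The files name no genome build, so the positions below are printed as the files give them and were not placed against any gene model. Whether a probe lies in an exon, an intron, a UTR or between genes was not analysed here, and probe sequences were not analysed here.

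Plant genomes are transcribed beyond the genes of any one annotation. Such transcripts are known to include long noncoding RNAs, transcripts antisense to genes, extended ends of messenger RNAs, transposon transcripts and genes that an older annotation missed. WIN1, also SHN1, is an AP2/ERF transcription factor known for activating cuticle formation, and the 35S promoter is a strong viral promoter active in most plant cells.

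Total RNA of whole seedlings of the Columbia-0 ecotype, aged 2 weeks, was measured on 1-colour Agilent arrays. One group of 4 samples, 35S:WIN1, had the genotype 35S:WIN1:NOS, and the other, vector control, also of 4 samples, was labelled wild type in its genotype field. Both groups grew on MS agar with 1% sucrose. Each sample pooled several seedlings. The labels say neither how many transgenic lines were used nor whether samples came from separate plates, so the p-values reflect only sample-to-sample spread, which may be technical.

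The transgene check followed the labels. WIN1 (AT1G15360) stood at 4.85 ± 0.83 (SD, n = 4) in 35S:WIN1 and at -8.20 ± 1.49 (SD, n = 4) in the control, on the log2 scale relative to each array's 75th percentile of signal, which is the scale of every level below. It was well above background on 4 of 4 and on 1 of 4 arrays. The leaf genes RBCS1A and LHCB1.3, the root genes BGLU23, SCR, SHR and COBL9, the epidermal genes ATML1 and PDF1, the guard cell gene FAMA and the meristem gene STM were above background on all 8 arrays. The seed storage genes SESA1 and CRA1 were above background on 0 of them. Of the 10 detected markers, 3 differed between the groups, where 32.6% of all probes on all 8 arrays were called. FAMA had a log2 difference of -1.28 (limma, adjusted p = 0.0163), PDF1 -1.07 (0.0110) and BGLU23 0.78 (0.0187). The other epidermal gene, ATML1, had 0.26 and was not called. Nor were the other root genes SCR, SHR and COBL9, at 0.10, 0.27 and 0.06, or RBCS1A, LHCB1.3 and STM, at 0.22, 0.14 and -0.46. Fewer cells of a type and less RNA per cell cannot be told apart in whole seedlings, and the part of these marker differences in the probe differences below was not tested. Each genotype filled a slide of its own, and hence no difference given here can be told apart from a difference between slides.

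Detection differed more between arrays for the position-named probes than for probes named by a locus. In 35S:WIN1, 14.3%, 15.4%, 20.9% and 24.0% of the 8812 probes were well above background on replicates 1 to 4. The control arrays had 20.3%, 22.9%, 24.6% and 23.2%. Locus-named probes ran only from 76.0% to 80.6% over the same 8 arrays. The lowest shares were those of 35S:WIN1 replicates 1 and 2, which were also the dimmest arrays, with a 75th percentile of 995.9 and 1268 intensity units against 1780 to 2486 on the other 6. The part of array brightness in the lower detection was not tested. Of 153 negative-control spots per array, 0 were well above background on 6 arrays and 1 on each of 35S:WIN1 replicates 3 and 4.

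**Figure D1:**
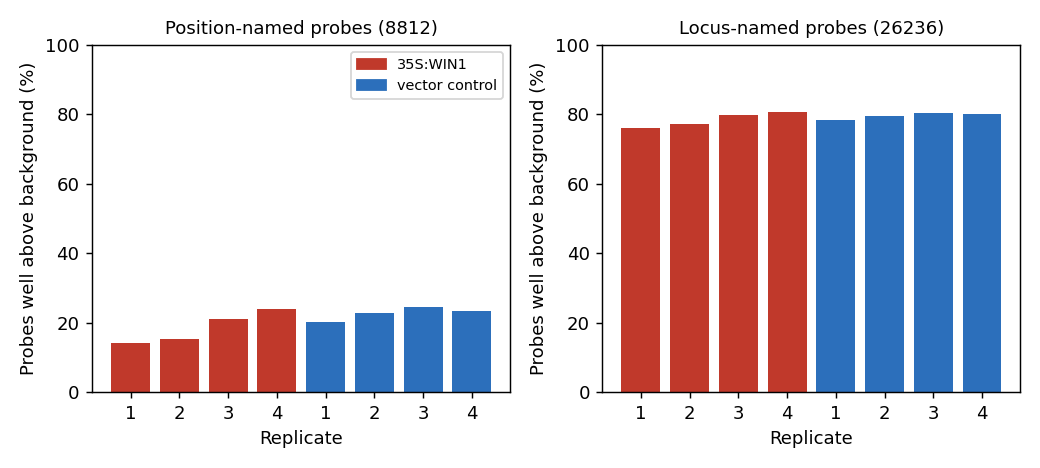
Bars give the percentage of probes well above background on each array, for 8812 position-named probes (left) and 26236 locus-named probes (right), with the 4 arrays of 35S:WIN1 and then the 4 of vector control. Position-named probes run from 14.3% to 24.6% with the lowest bars at 35S:WIN1 replicates 1 and 2, while locus-named probes lie between 76.0% and 80.6%.

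Detection was mostly all or nothing. Of the 8812 probes, 5975 (67.8%) were above background on no array and 1035 on all 8. Between these extremes 585, 189 and 159 probes were detected on 1, 2 and 3 arrays, which left them out, and 168, 211, 265 and 225 on 4, 5, 6 and 7 arrays. Just inside the limit, the probes on 4 arrays had a median signal of 11.2 units in 35S:WIN1 and 17.6 in the control. Just outside it, those on 3 arrays had 9.99 and 15.5. The lowest signal of any probe called well above background was 11.2 to 14.2 units, depending on the array. Most of these probes were dim, with a median mean signal of 42.8 units over the 1904 and a range of 10.9 to 37370.

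The files hold a few traits that the choice of probes did not use. Probes with a longer or shorter span than 60 bases were detected more often. Of 97 probes whose coordinates span 61 to 969 bases, 38 (39.2%) were members, 37 of them on all 8 arrays, against 21.3% of the 8696 probes that span exactly 60. Of 19 probes that span under 60 bases, 11 were members. The number in the probe's name also marked a difference. Of 499 probes numbered below 700000, 187 (37.5%) were members, against 20.7% of 8313 numbered 700000 and above. Strand made little difference, with 21.3% of probes on the plus strand and 22.0% on the minus strand, where strand is read from the order of the 2 coordinates. By chromosome the share ran from 19.5% on chromosome 4 to 24.0% on chromosome 1.

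The densest cluster of detected probes, whose limits were drawn after the values were seen, lay on chromosome 2. Between 3.2 and 3.5 Mb, 79 of 96 position-named probes (82.3%) were members, against 1825 of 8716 (20.9%) elsewhere. The cluster had a sharp edge, since 0 of the 4 probes from 3.5 to 3.6 Mb were members and 2 of 9 from 3.1 to 3.2 Mb were. In 1 Mb windows with at least 10 probes the share had a median of 20.4% and was highest, at 69.5%, in the window from 3 to 4 Mb of chromosome 2. As background, Arabidopsis carries a large insertion of mitochondrial DNA near the centromere of chromosome 2. Signal from near-identical copies cannot be separated here, and whether these probes lie in that insertion was not tested. Of the 65 cluster members on all 8 arrays, 12 were lower and 0 higher in 35S:WIN1, with log2 differences from -1.30 to 0.50 and a median of -0.17. The background for probes on all 8 arrays was 18.9% lower and 13.7% higher. The 4 probes the files name by a mitochondrial locus had log2 differences from -0.82 to 0.34, with 1 lower and 0 higher.

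The main question was which position-named transcripts differed between 35S:WIN1 and vector control. Of the 1035 probes on all 8 arrays, whose choice rested on neither group alone, 91 rose and 210 fell in 35S:WIN1 by limma, at an adjusted p under 0.05 over all 23991 probes tested. That is 29.1%, close to the 32.6% of all probes detected on all 8 arrays. The share higher was 8.79% against a background of 13.7%, and the share lower 20.3% against 18.9%. The difference between these shares was not tested. The groups did not overlap for 98 higher probes (9.47%, background 14.6%) and 187 lower (18.1%, background 19.5%). At least 2-fold changes were called for 37 higher and 94 lower. Over all 21122 probes on all 8 arrays, 1410 were higher and 1276 lower by that limit. For 613 of the 1035 (59.2%, against 64.9% of all probes on all 8 arrays) the fitted difference was under 0.5 on the log2 scale.

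Directions depended on how the arrays were corrected and scaled. Higher probes made up 30.2% of the calls, but 9.15% on the authors' deposited values taken without scaling, and 53.7% under normexp background correction with an offset of 50. Under normexp 58 were higher and 50 lower, and of the 210 called lower 50 stayed lower while 38 stood above 0. The median difference of the 1035 went from -0.16 to 0.19, and that of all probes tested from -0.07 to 0.07. No share of calls over all probes is set beside these normexp counts, so nothing particular to these probes is read from them. A split by signal, added after the data were seen, showed where calls were lost. Of the 345 dimmest of the 1035, at 18.9 to 69.1 units, 25 were called higher and 41 lower on the processed signal, against 1 and 0 under normexp, and their median difference went from -0.01 to 0.34. The 345 in the middle, at 69.1 to 201.6 units, went from 28 higher and 100 lower to 20 and 6, with 19 and 6 calls kept, and their median from -0.22 to 0.11. Of the 345 brightest, at 203.7 to 37370 units, 69 were lower and 38 higher on the processed signal, and 44 of those 69 and 34 of those 38 kept their call under normexp. With each array centred on the median of its 8 spike-in probes, all differences shift by -1.66, which leaves 0 probes called higher by limma, 0 at an unadjusted p of 0.05, and 603 lower.

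**Figure D2:**
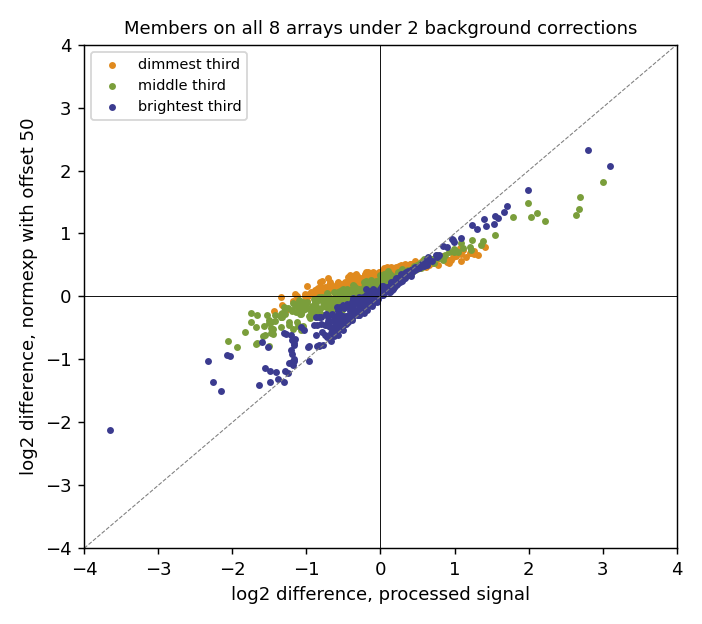
Each point is a position-named probe well above background on all 8 arrays (n = 1035), with its log2 difference (35S:WIN1 minus vector control) on the processed signal on the horizontal axis and under normexp with an offset of 50 on the vertical axis, coloured by the 345 dimmest, middle and brightest probes. The dimmest span a narrower range under normexp than on the processed signal, around their normexp median of 0.34, while the brightest lie closer to the diagonal.

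Over all 1904 members, 146 were higher and 452 lower (31.4%, where 33.5% of all probes tested were called). The 869 detected on 4 to 7 arrays gave 55 higher (6.33%) and 242 lower (27.8%), against 16% and 29.7% of locus-named probes on 4 to 7 arrays. Those counts include probes that entered through the group in which they were bright, and nothing is read from them. The median difference was -0.16 for the 1035 and -0.50 for the 869, beside -0.04 for all probes on all 8 arrays. Locus-named probes on 4 to 7 arrays had a median of -0.53. The median was below the control on each 35S:WIN1 array for the 1035, by 0.03, 0.15, 0.22 and 0.09 on replicates 1 to 4 (log2 differences of -0.03, -0.15, -0.22 and -0.09), while the control arrays lay between -0.03 and 0.04.

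**Figure D3:**
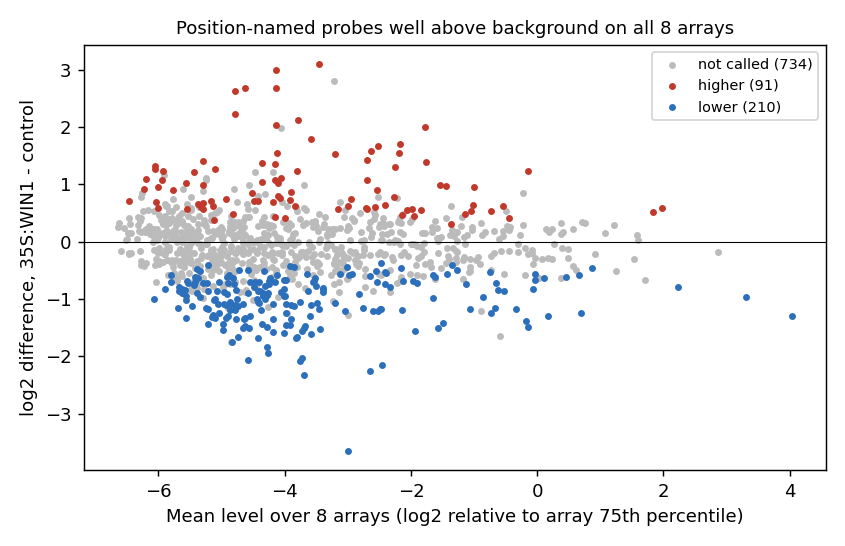
Each point is one of the 1035 position-named probes detected on all 8 arrays, plotted by its mean level (log2 relative to the array's 75th percentile) and its log2 difference, 35S:WIN1 minus vector control. Red points (91) were called higher, blue points (210) lower and grey points were not called, and both kinds of call occur from dim to bright probes.

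The largest rise among the probes on all 8 arrays was that of A_84_P703001 (chr4:9834132-9834191, plus strand). Its level was -1.74, -1.64, -2.66 and -1.60 on 35S:WIN1 replicates 1 to 4 and -5.03, -4.78, -5.23 and -5.00 on the control replicates. Every 35S:WIN1 array lay above every control array, and replicate 3 was the lowest of its group. The rise was 8.57-fold (log2 SE 0.24, limma, adjusted p = 0.000133).

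A_84_P720162 (chr4:15222933-15222992, minus strand) rose 8.00-fold, from -5.63 ± 0.35 to -2.63 ± 0.58 (SD, n = 4; log2 SE 0.30, adjusted p = 0.000387). A_84_P712776 (chr4:8641954-8642013, plus strand) rose 6.45-fold, from -5.49 ± 0.49 to -2.80 ± 0.70. These 3 were the largest rises that passed the test with groups that do not overlap, and all lay on chromosome 4. A_84_P727775 (chr1:4662921-4662980, minus strand), named after its values were seen, had a larger difference than the last of them, 2.80 (SE 1.59, adjusted p = 0.208), but did not pass. Its levels of 0.71, 0.04, -1.32 and -6.69 in 35S:WIN1 overlapped the control's -5.92 to -2.50, with replicate 4 the lowest of all 8 arrays. A_84_P727394 (chr3:11105111-11105170, plus strand) rose 6.43-fold (log2 SE 0.42, adjusted p = 0.00253), with a wide control range from -6.87 to -4.81. A_84_P740608 (chr2:14420317-14420376, minus strand) rose 6.22-fold and A_84_P256580 (chr3:1451335-1451394, plus strand) 4.67-fold.

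The last pair of the 8 largest such rises, both on chromosome 1, had the smallest standard errors. A_84_P717152 (chr1:6191855-6191914, minus strand) stood at -2.14, -2.94, -2.91 and -2.89 in 35S:WIN1 and at -4.73, -4.81, -4.86 and -4.98 in the control, a rise of 4.35-fold (log2 SE 0.19, adjusted p = 0.000238). A_84_P736669 (chr1:19825486-19825545, plus strand) stood at -3.26, -3.07, -3.17 and -3.00 against -5.10, -5.36, -4.99 and -5.19. Its spread within a group, 0.11 and 0.16 (SD, n = 4), was far below its log2 difference of 2.03 (SE 0.12, adjusted p = 3.60e-05). All 8 rises passed under every alternative run except spike-in scaling, where their log2 differences were 0.37 to 1.44 and their adjusted p 0.0782 to 0.641.

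**Figure D4:**
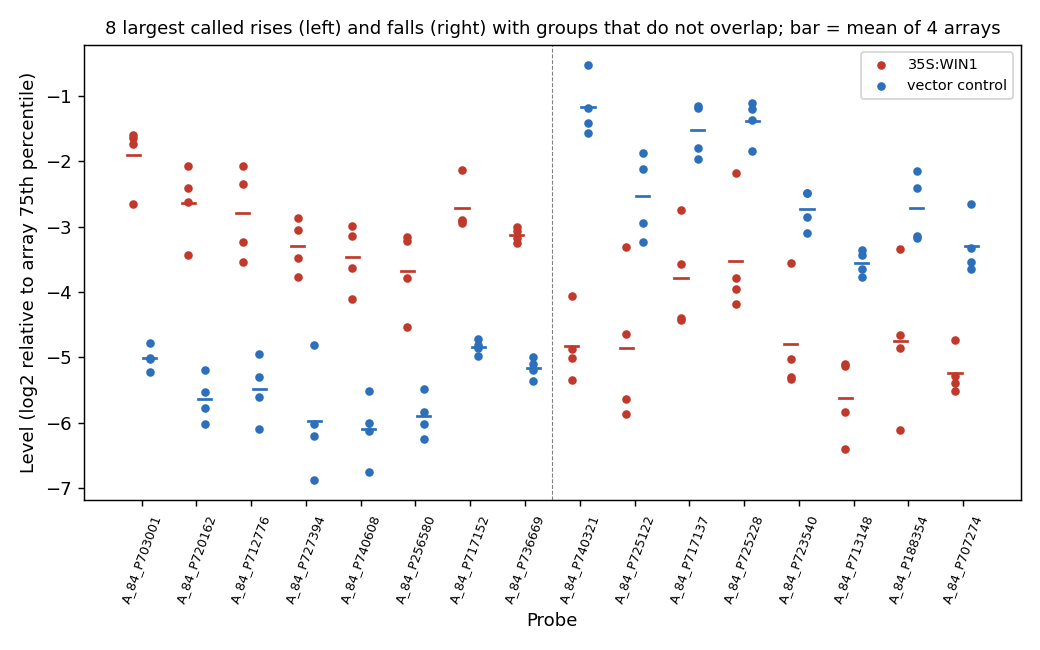
Points give the level of each probe on each array (log2 relative to the array's 75th percentile), red for the 4 arrays of 35S:WIN1 and blue for the 4 of vector control, with a bar at the group mean, for the 8 largest rises (left of the dashed line) and the 8 largest falls (right) among probes detected on all 8 arrays, called, and chosen to have groups that do not overlap. The SD is larger in 35S:WIN1 than in the control for 7 of the 8 falls, as at A_84_P725122, from -5.86 to -3.31, and for 6 of the 8 rises.

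The largest fall was that of A_84_P740321 (chr3:16152329-16152388, plus strand). Its level was -4.07, -4.87, -5.00 and -5.34 on 35S:WIN1 replicates 1 to 4 and -1.56, -0.53, -1.42 and -1.18 on the control replicates. The groups were separated by more than the range of either. It fell 12.5-fold, a log2 difference of -3.65 (SE 0.31, limma, adjusted p = 0.000188). The fall passed under every alternative run, with log2 differences from -5.31 to -2.11.

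The other falls were smaller. A_84_P725122 (chr1:11217282-11217341, plus strand) stood at -5.86, -5.63, -4.65 and -3.31 in 35S:WIN1 and at -1.87, -2.11, -2.94 and -3.23 in the control, so that 35S:WIN1 replicate 4 lay just below control replicate 4. Its log2 difference of -2.32 (SE 0.57, adjusted p = 0.0167) was not called without 35S:WIN1 replicates 1 and 2 (-1.44, adjusted p = 0.0995), under normexp (adjusted p = 0.0545) or with a replicate block (adjusted p = 0.0580). Similarly, A_84_P717137 (chr3:20720808-20720867, minus strand) fell 4.78-fold, with 35S:WIN1 values of -4.42, -4.40, -3.57 and -2.74 and control values from -1.96 to -1.16. It passed under every alternative run.

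A_84_P725228 (chr2:7967744-7967797, plus strand, a span of 54 bases) fell 4.43-fold (adjusted p = 0.00676), but its 35S:WIN1 replicate 4 lay at -2.18 against -4.19 to -3.79 on the others, and the call was lost without replicates 1 and 2 (adjusted p = 0.0574). A_84_P723540 (chr2:8994983-8995042, minus strand) fell 4.21-fold, with 35S:WIN1 replicate 4 at -3.55 and the others at -5.33 to -5.03. Replicate 4, the brightest 35S:WIN1 array, was the highest of its group in 7 of the 8 falls, all but A_84_P740321, and in 2 of the 8 rises. The part of array brightness in these falls was not tested. A_84_P713148 (chr1:3590476-3590535, minus strand) fell 4.18-fold (log2 SE 0.29, adjusted p = 0.00166).

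A_84_P188354 (chr3:1555548-1555607, minus strand) fell 4.08-fold (adjusted p = 0.0219). Its call was lost without 35S:WIN1 replicate 3 (adjusted p = 0.0525), vector control replicate 3 (0.0569) or replicate 4 (0.0555), and without the 2 dimmest arrays (0.0966). The most even of the smaller falls was A_84_P707274 (chr2:17655402-17655461, plus strand), at -5.40, -5.51, -5.29 and -4.73 in 35S:WIN1 and -3.54, -3.33, -3.65 and -2.65 in the control. It fell 3.83-fold (log2 SE 0.26, adjusted p = 0.00126).

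Some probes were detected in one group only, and are described without a test because that detection chose them. Well above background on all 4 arrays of 35S:WIN1 and on 0 of the control were 8 probes. The reverse held for 44. A fold for these is a bound, the mean of the bright group against the dim group's mean with each array raised to at least its detection floor, the lowest signal of any probe well above background there. The bounds of the 8 ran from at least 2.01-fold to at least 8.27-fold higher. Of the 44, 14 were at least 2-fold lower and 1 gave no bound. No share over all probes is set beside the 8 and the 44, and nothing is read from their balance. The dimmest arrays were 35S:WIN1 replicates 1 and 2, and the part of array brightness in these counts was not tested.

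The highest bound was that of A_84_P705532 (chr4:18293813-18293872, plus strand), at -5.13, -4.20, -4.33 and -3.61 in 35S:WIN1 and -8.07 to -7.46, not well above background, in the control. It was at least 8.27-fold higher. A_84_P723906 (chr1:19675320-19675379, minus strand) was at least 4.50-fold higher. A_84_P12195 (chr5:24023425-24023560, minus strand), whose coordinates span 136 bases, was at least 3.94-fold higher, with 35S:WIN1 values between -5.69 and -5.18. A_84_P722549 (chr3:5179032-5179091, minus strand) was at least 3.88-fold higher but uneven, with -3.97 on 35S:WIN1 replicate 2 and -6.20 on replicate 3.

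In the other direction A_84_P731584 (chr3:633383-633442, minus strand) stood at -4.86, -4.24, -4.89 and -5.34 in the control and was not well above background on any 35S:WIN1 array. It was at least 4.54-fold lower. A_84_P706615 (chr5:18715842-18715901, minus strand) was at least 3.42-fold lower, and A_84_P739434 (chr5:1935312-1935371, plus strand) at least 2.97-fold lower, the latter with control values from -6.81 to -3.36.

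A_84_P730955 (chr5:20813223-20813282, minus strand), at least 3.28-fold lower, overlapped a pair of probes of the opposite strand that were detected on all 8 arrays. A_84_P736816 (chr5:20813218-20813277, plus strand) and A_84_P730660 (chr5:20813259-20813318, plus strand), chosen for mention after their values were seen, had log2 differences of -0.94 (SE 0.19, adjusted p = 0.00777) and -0.70 (SE 0.21, adjusted p = 0.0356). Since the minus-strand probe was chosen by its detection in the control only, nothing is read from the shared direction of the strands.

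The 4 probes with the highest levels included 3 from the chromosome 2 cluster. A_84_P723453 (chr5:10186377-10186436, plus strand) stood at 2.85, 3.36, 3.46 and 3.87 in 35S:WIN1 and 5.09, 4.77, 4.31 and 4.56 in the control. It fell 2.46-fold (log2 SE 0.24, adjusted p = 0.00541), with no overlap between the groups. A_84_P718163 (chr5:10186331-10186390, minus strand), which shares 13 bases with it on the opposite strand, differed by -0.53 on the log2 scale (SE 0.28, adjusted p = 0.179).

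Within the cluster, A_84_P736313 (chr2:3333828-3333887, plus strand) had levels of 3.25, 2.70, 2.29 and 3.02 in 35S:WIN1 and 4.04, 3.66, 3.88 and 3.57 in the control, and fell 1.96-fold (log2 SE 0.22, adjusted p = 0.0110). A_84_P719430 (chr2:3298991-3299050, plus strand) fell 1.72-fold (adjusted p = 0.0205), a call lost without vector control replicate 1 (adjusted p = 0.0536) or 4 (0.0521). A_84_P710569 (chr2:3386825-3386884, plus strand) did not pass, with a log2 difference of -0.19, SE 0.17 and adjusted p = 0.430, and its groups overlapped. Under spike-in scaling it was called lower (-1.85, adjusted p = 0.0356). The calls of single probes in this cluster therefore differed.

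Neighbouring probes of the same strand had similar differences. Among the 1904 members, 390 fell into 173 groups in which each lay within 1000 bases of the next, 145 groups on one strand and 28 with both strands. Of these groups 141 had 2 members, 24 had 3, 4 had 4 and 4 had 5. Among neighbouring pairs detected on all 8 arrays, the log2 differences correlated at r = 0.705 over 88 pairs on the same strand and at 0.227 over 17 pairs on opposite strands. The sign was shared by 68 of the 88 and by 9 of the 17. Successive members over 1000 bases apart gave r = -0.03 over 923 pairs, with 463 of the same sign. Of the 17 opposite-strand pairs, 11 lay in the 3 to 4 Mb window of chromosome 2, where they gave r = 0.0802. Without that window r was 0.712 over 72 same-strand pairs and 0.427 over 6 opposite-strand pairs, of which 4 shared the sign. The strand contrast thus rests mostly on pairs of that window, and the difference was not tested. These correlations are across probes on the same 8 arrays, and 2 probes near each other may read one transcript, so they are a description.

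**Figure D5:**
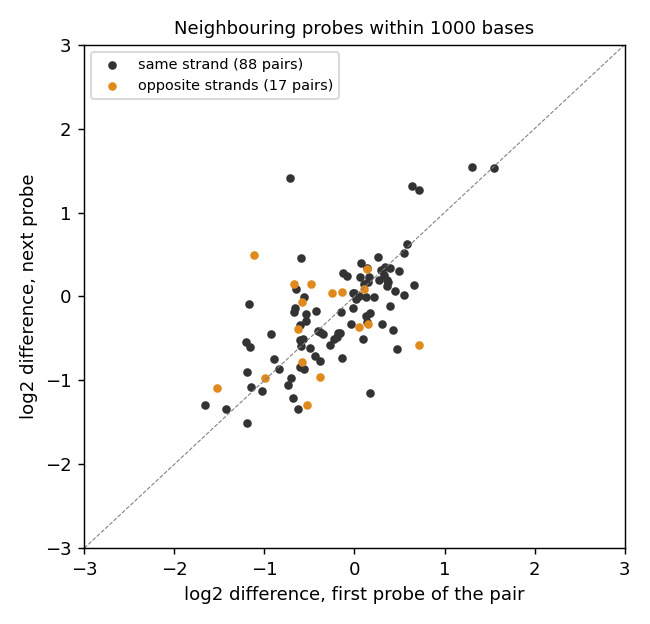
Each point is a pair of neighbouring position-named probes, both detected on all 8 arrays and at most 1000 bases apart, plotted by the log2 difference (35S:WIN1 minus vector control) of the first and of the next; black marks 88 pairs on the same strand and orange 17 pairs on opposite strands. Black points gather along the dashed line of equality (r = 0.705) and orange points scatter more widely (r = 0.227).

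Of 18 neighbouring pairs in which both probes were called, 13 were lower together, 4 higher together and 1 opposite. For successive members over 1000 bases apart, both were called in 84 pairs, with 34 lower together, 5 higher together and 45 opposite. The neighbouring pair with the largest shared rise is given here after its values were seen. A_84_P705156 (chr1:11454581-11454640, plus strand) stood at -1.39, -1.62, -1.07 and -1.61 in 35S:WIN1 and -3.05, -3.25, -2.58 and -2.99 in the control. A_84_P739803 (chr1:11455088-11455147, plus strand) stood at -2.22, -2.38, -2.26 and -2.90 against -4.14, -4.19, -3.64 and -3.91. Their log2 differences were 1.55 (SE 0.18, adjusted p = 0.000797) and 1.53 (SE 0.19, adjusted p = 0.00100), and in both the control replicate 3 was the highest of its group.

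The second largest shared rise, likewise picked afterwards, was on chromosome 5. A_84_P711519 (chr5:17749818-17749877, plus strand) and A_84_P716826 (chr5:17750583-17750642, plus strand) rose 2.47-fold (log2 SE 0.21, adjusted p = 0.00279) and 2.92-fold (log2 SE 0.31, adjusted p = 0.00698). The remaining higher pairs were A_84_P735484 with A_84_P710968, at 0.71 and 1.27, and A_84_P721794 with A_84_P735157, at 0.64 and 1.32.

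The largest shared falls, picked in the same way, were of similar size on the processed signal. Under normexp the 4 probes of the largest and second largest shared rises had log2 differences of 0.98 to 1.27. The 4 probes of the falls given here had -0.75 to -0.32. A_84_P722594 (chr3:23339186-23339245, plus strand) and A_84_P728382 (chr3:23339597-23339656, plus strand) had log2 differences of -1.66 (SE 0.30, adjusted p = 0.00450) and -1.30 (SE 0.43, adjusted p = 0.0495). A_84_P722599 (chr4:13949443-13949502, plus strand) and A_84_P723224 (chr4:13949996-13950055, plus strand) had -1.43 (SE 0.28, adjusted p = 0.00694) and -1.34 (SE 0.42, adjusted p = 0.0393). In both pairs the first probe's groups did not overlap and the second's did. In all 4 probes 35S:WIN1 replicate 4 was the highest of its group. The mean difference of the other 11 lower pairs ran from -1.35 to -0.56.

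One pair went opposite ways. A_84_P721765 (chr1:4761124-4761183, minus strand) was lower by a log2 difference of -0.72 (SE 0.21, adjusted p = 0.0342) with overlapping groups, from -2.65 to -1.98 in 35S:WIN1 and -1.98 to -1.26 in the control. A_84_P705207 (chr1:4761971-4762030, minus strand), under 1000 bases away on the same strand, rose by 1.42 (SE 0.23, adjusted p = 0.00323), with 35S:WIN1 values from -5.17 to -3.99 and control values from -6.12 to -5.93.

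The 4 groups of 5 neighbours varied in how uniform they were. On chromosome 1, from 23829989 to 23830597, all 5 probes lay on the plus strand and all had log2 differences below 0, from -1.06 to -0.15. A_84_P725555 (-0.89, SE 0.16, adjusted p = 0.00488) and A_84_P738731 (-1.06, SE 0.29, adjusted p = 0.0251) were lower. Under normexp neither passed (adjusted p = 0.713 and 0.452), and A_84_P738731 was also not called when single arrays were left out, namely 35S:WIN1 replicate 1 (adjusted p = 0.0653) or 2 (0.0617) and vector control replicate 2 (0.0678) or 4 (0.0624), nor on the deposited values (0.0599) or without the 2 dimmest arrays (0.158). A_84_P728289 had -0.74 (SE 0.31, adjusted p = 0.0953). A_84_P722794 and A_84_P739808, detected on 7 arrays, had -0.15 and -0.23.

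On chromosome 5, from 16203356 to 16205950, the 5 probes were again all on the plus strand and all had differences above 0, from 0.08 to 1.26. A_84_P738192, the only one on all 8 arrays, had levels of -2.86, -4.05, -3.95 and -3.77 in 35S:WIN1 and -4.29, -4.28, -4.16 and -4.41 in the control. The groups did not overlap, but the log2 difference of 0.63 (SE 0.25, adjusted p = 0.0868) did not pass. A_84_P741118, on 7 arrays, had a difference of 1.26, A_84_P700035 0.59, A_84_P710373 0.34 and A_84_P732914 0.08.

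Both remaining groups of 5 lay in the chromosome 2 cluster and held both strands. From 3298667 to 3299827, A_84_P719430 (above) was lower, A_84_P715962 and A_84_P710101 had -0.60 (adjusted p = 0.0705) and -0.59 (adjusted p = 0.139), A_84_P720542 had -0.32 and A_84_P717821 0.89. From 3337797 to 3338953 the differences ran from -0.86 at A_84_P723230 to 0.33 at A_84_P703603, and 0 of the 5 were called. A_84_P739485 there had -0.67 (SE 0.25, adjusted p = 0.0702), while A_84_P730782, which shares 6 bases with it on the opposite strand, had 0.14 (SE 0.28, adjusted p = 0.723). A_84_P714214 had 0.26.

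Other probes, chosen for the smallest fitted differences, barely differed on the main scale. Their intervals show how tightly the data bound a difference on that scale only. They leave out the choice of scaling and background correction. Over the alternatives run, the lowest log2 difference of each of these 4 probes was -1.66, with spike-in scaling, and the highest was 0.09 to 0.33. A_84_P710276 (chr2:18303162-18303221, minus strand) stood at -2.26 ± 0.13 in 35S:WIN1 and -2.26 ± 0.08 in the control (SD, n = 4), with a 95% interval for the log2 difference of -0.24 to 0.24. A_84_P707409 (chr4:15271721-15271780, minus strand) had an interval of -0.32 to 0.32, and A_84_P721007 (chr2:3396757-3396816, plus strand), in the chromosome 2 cluster, -0.38 to 0.38. For A_84_P738659 (chr1:8032768-8032827, plus strand) the fitted difference was 0.00 as well, but the interval was -0.96 to 0.96, so that a change of nearly 2-fold either way is not bounded out by these arrays.

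By chromosome, the calls among members on all 8 arrays were lower more often than higher on each of the 5, as they were over all probes on all 8 arrays (18.9% lower, 13.7% higher). Chromosome 1 had 26 higher and 53 lower of 291, chromosome 2 had 15 and 43 of 209, chromosome 3 had 20 and 37 of 188, chromosome 4 had 12 and 36 of 124, and chromosome 5 had 18 and 41 of 223. Under normexp the direction reversed on chromosomes 1 (20 higher, 10 lower), 4 (8 and 3) and 5 (11 and 7), and stayed on chromosomes 2 (8 and 17) and 3 (11 and 13). No share over all probes under normexp is set beside these counts. The 37 probes with a span over 60 bases gave 4 higher and 4 lower, and the 161 probes numbered below 700000 gave 17 higher and 23 lower. Their medians, 0.01 and -0.05, lay nearer to the median of all probes on all 8 arrays than the -0.17 of the 874 probes numbered 700000 and above. Among locus-named probes of known noncoding RNAs, 4 of 10 loci had a probe and 3 of them were tested, and TAS3, a source of trans-acting small RNAs, was lower, with a log2 difference of -1.57 (SE 0.22, adjusted p = 0.00150). APOLO (-2.17, SE 0.90, adjusted p = 0.0959) and AT4 (-0.76, SE 0.85, adjusted p = 0.517) did not pass.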

How the data were processed

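Per the submitters' processing notes, the authors extracted the scans with Agilent Feature Extraction 9.1.3.1. Its processed signal, per the file headers a linear intensity after background subtraction and spatial detrending, is unscaled between arrays. Spot and background medians are deposited as raw intensity. The authors' series-wide values are that processed signal divided by 1340.6 (35S:WIN1) or 1311.9 (vector control), so linear and uncentred, with column medians from 0.0464 to 0.126; the sources used here do not give the reason for these divisors. Deposited marks for well above background, outlier and saturated spots were used.

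Groups came from sample titles. The processed signal was divided by its 75th percentile over each array's non-control spots and log2-transformed. Outlier spots were left out and spots of one probe averaged. No non-control spot was saturated. All 23993 probes above background on at least 4 of 8 arrays were fitted together, of which 23991 gave a value in both groups, with limma 3.58.1 in R 4.3.3, two-sided, with Benjamini-Hochberg adjustment at 0.05. The fit was tested on simulated data. The files hold no mean spot signal, so normexp used the median signal. No p is printed for a probe absent from an array, except in counts and for APOLO. Named probes followed a fixed rule (largest changes with groups that do not overlap, largest bounds, highest levels, largest neighbour groups, smallest differences), and others are said to be chosen afterwards. The probes, lists and rules were chosen with earlier results of these data known. The number of arrays limits the precision.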

Additional observations from a re-analysis of the deposited data

Results flagged for a closer look

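Among the 51 named probes, each group of 4 arrays was checked for a single array far from the other 3, by the gap relative to the range. It was found in 6 of 102 groups, where chance gives about 5.1. A_84_P703001 was low on 35S:WIN1 replicate 3 (level -2.66), and A_84_P717152 was high on 35S:WIN1 replicate 1 (-2.14). A_84_P710569 was high on vector control replicate 3 (3.17). A_84_P739808 was low on 35S:WIN1 replicate 1 (-7.96), A_84_P717821 on vector control replicate 4 (-7.88) and A_84_P741118 on vector control replicate 1 (-7.89), each on the only array where that probe was not well above background.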

How the results depend on the processing

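The counts of position-named probes called higher and lower were 146 and 452 (91 and 210 on all 8 arrays), and those of all probes 3230 and 4807. With spike-in scaling they became 8 and 1255 (0 and 603; all probes 288 and 13305), and under normexp 69 and 55 (58 and 50; all probes lower 3068). On the deposited values 38 were higher (14 and 139 on all 8 arrays; all probes 957 and 2518). Without 35S:WIN1 replicates 1 and 2 the counts were 91 and 249 (51 and 120; all probes 2060 and 2616). Testing only probes on all 8 arrays gave 97 and 226. Leaving out one array gave 106 to 166 higher and 306 to 558 lower (59 to 103 and 145 to 247 on all 8 arrays, 59 without 35S:WIN1 replicate 1; all probes 2391 to 3895 and 3434 to 5465). Same-numbered samples deviated together at r = -0.0254, 0.0762, 0.178 and 0.0717, and 3 of 8 samples correlated best with their own number. No clear pairing by number was seen, though so few samples cannot exclude it. With a replicate block 141 were higher and 443 lower (88 and 213). Quantile scaling, median centring, no filter on dim probes, outlier spots kept, another variance model and array weights kept every count within 1.5 times. Of 680 results of 34 named probes under an alternative, 640 kept their side of the threshold, 26 lost and 14 gained a call, and 0 called results changed sign. Slide could not be fitted as a block. Where the cause is not stated it was not tested. Dim signal is a limit of these probes, with a median processed signal of 42.8 units over the 1904 members. Normexp, with its offset of 50, ran on the median spot signal, so those units are not set against that offset. The part of dim signal in the calls lost under normexp was not tested.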
